A study of Mus musculus with 2 samples.

Results

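The 9 transcriptional regulators *Fezf2*, *Bcl11b*, *Tbr1*, *Tle4*, *Sox5*, *Cux1*, *Cux2*, *Ldb2* and *Zfpm2*, which are used to tell cortical layers apart, were followed in single cells of the embryonic mouse cerebral cortex. Their unique molecular identifiers (UMIs), each standing for 1 captured mRNA molecule, were read in 7501 of 16213 cells, 2730 of 5966 in the first library (replicate 1) and 4771 of 10247 in the second (replicate 2). These excitatory-lineage cells held at least 1 UMI of *Neurod2* or *Neurod6*, transcription factors of newborn and maturing cortical excitatory neurons, and no UMI of *Gad1* or *Gad2*, the enzymes that make GABA. All cells had 1500 to 60000 UMIs and under 10% mitochondrial UMIs. The 9 genes were matched by symbol among the 32285 genes listed in each library, and none of them entered the choice of these cells.

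Both libraries came from the cerebral cortex of wild-type (WT) embryos at embryonic day (E) 16.5, controls of an *Eomes*-Cre mouse line named EomesDot in the labels. No treated or mutant group was analysed here. The tissue was dissociated with papain and sequenced with the 10x Genomics 3' chemistry, which counts poly(A) RNA near its 3' end. The study addressed the DNA methyltransferase DNMT1 in migrating somatostatin interneurons and, with single-cell data, how these interneurons and cortical progenitors interact. The labels did not give whether a library held 1 embryo or several, so the libraries may differ only technically. The p-values below therefore cannot be taken to measure variation between embryos. They rest on how far a difference between groups of cells varied between these libraries, and on a spread estimated partly from other genes.

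During cortical neurogenesis, radial glia produce intermediate progenitors marked by *Eomes*, these pass through a *Neurod1*-positive state, and the resulting neurons settle the deep layers first and the upper layers later. *Fezf2*, a zinc finger repressor, and *Bcl11b* (CTIP2) direct layer 5 neurons towards subcerebral targets. *Tbr1*, a T-box factor, *Sox5*, an SRY-box factor, *Tle4*, a Groucho-family co-repressor, and *Zfpm2* (FOG2), a GATA cofactor, are known from layer 6 corticothalamic neurons. *Ldb2*, a LIM-domain-binding adaptor, is known from deep-layer projection neurons. The homeodomain factors *Cux1* and *Cux2* mark upper-layer neurons and progenitors that give rise to them.

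On the mm10 assembly (RefSeq, GRCm38.p6), *Cux1*, *Cux2* and *Ldb2* lie on chromosome 5, at 136248135-136567590, 121857962-122050415 and 44435955-44799759. *Fezf2* lies on chromosome 14 at 12338992-12346803, *Bcl11b* on chromosome 12 at 107910403-108004145, *Tbr1* on chromosome 2 at 61802863-61814114, *Tle4* on chromosome 19 at 14448072-14598183, *Sox5* on chromosome 6 at 143828425-144782287 and *Zfpm2* on chromosome 15 at 40655042-41104592. RefSeq promoter windows, 300 bases around a transcript start, were found for 7 of the 9 genes, and none for *Ldb2* and *Zfpm2*. The 250 bases before the start are printed for *Fezf2* and for the second start of *Cux2*, a pair of genes found in the same cell less often than independence among cells of similar total UMIs gave, and for *Tbr1*, which was found with members of both sides. They read 5' to 3' on the strand of the gene, and capitals mark a SOX motif (AACAAT) or a CUX motif (ATCGAT), both searched on either strand. The *Fezf2* window held neither.
Tbr1, chr2:61804203-61804452, plus strand: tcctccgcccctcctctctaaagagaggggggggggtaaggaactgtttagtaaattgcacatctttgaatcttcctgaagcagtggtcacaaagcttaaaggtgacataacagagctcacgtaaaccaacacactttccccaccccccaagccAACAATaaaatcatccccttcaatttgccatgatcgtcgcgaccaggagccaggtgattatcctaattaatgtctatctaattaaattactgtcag
Fezf2, chr14:12345866-12346115, minus strand: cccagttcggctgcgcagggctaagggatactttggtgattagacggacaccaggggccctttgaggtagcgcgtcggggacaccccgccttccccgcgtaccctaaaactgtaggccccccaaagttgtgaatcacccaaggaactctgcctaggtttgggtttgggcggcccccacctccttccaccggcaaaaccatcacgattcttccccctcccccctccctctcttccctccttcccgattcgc
Cux2 second start, chr5:122047826-122048075, minus strand: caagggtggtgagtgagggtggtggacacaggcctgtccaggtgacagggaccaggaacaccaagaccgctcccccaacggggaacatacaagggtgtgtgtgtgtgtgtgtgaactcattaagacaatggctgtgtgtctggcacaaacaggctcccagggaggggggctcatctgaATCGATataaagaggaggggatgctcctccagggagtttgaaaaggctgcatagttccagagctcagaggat

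Counted from the 5' end of the window, the SOX motif began at base 155 for *Tbr1* and, on the opposite strand, at base 180 of the second *Tle4* window, and 10.7% of all 32851 promoter windows held it. The CUX motif began at base 179 of the second *Cux2* window, and 0.925% of all windows held it. The first *Cux2* window and the first *Tle4* window held neither motif. A T-box motif (GGTGTGA), held by 3.98% of all windows, was in none of the 9 windows of these genes. The share of G and C was 46% in the *Tbr1* window, 61.3% in the *Fezf2* window and 56.7% in the second *Cux2* window. These matches describe letters and say nothing of binding.

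The excitatory-lineage cells had a median of 7081 UMIs in replicate 1 and 5713 in replicate 2. The whole libraries held 9049 and 13556 barcodes with 46398156 and 64324236 UMIs, and 40 barcodes occurred in both. The excitatory label was checked against genes outside the gate. *Slc17a6*, a vesicular glutamate transporter, was found in 42.0% and 35.2% of the excitatory-lineage cells of replicates 1 and 2, against 0.832% and 0.758% of the GABAergic cells (*Gad1* or *Gad2* and neither Neurod gene, 1683 and 2507 cells, median 3819 and 3895 UMIs). *Dlx6os1*, an RNA of the GABAergic lineage, was found in 6.59% and 6.64% against 80.9% and 79.9%. The hemoglobin gene *Hbb-bs* was found in 89.2% and 96.7% of the excitatory-lineage cells, at about the share in GABAergic cells (88.9% and 97.0%). Markers of vessels, fibroblasts or microglia (at least 2 UMIs) or at least 5% globin UMIs were found in 3.52% and 5.95% of the excitatory-lineage cells.

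Levels are given in CPM, the UMIs of a gene summed over the cells of a group in 1 library and scaled to the UMIs of all genes in those cells. They are compared between groups of cells and not between genes. *Tbr1* stood far above its level in other cell classes. It was at 101 and 93.0 CPM in the excitatory-lineage cells of replicates 1 and 2 (97.2 ± 6.03, mean and SD, n = 2), against 5.20 and 7.37 in GABAergic cells, 6.10 and 6.78 in progenitor-marked cells (297 and 488 cells) and 6.17 and 8.97 in non-neural cells (201 and 424 cells). A *Tbr1* UMI was present in 41.9% and 36.3% of the excitatory-lineage cells, and in 3.48% and 5.19% of the non-neural cells, a class that should lack it, at median depths of 4511 and 5157 UMIs. Of those 201 and 424 non-neural cells, 9 and 72 were marked as doublets.

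*Fezf2* was at 34.2 and 32.3 CPM in the excitatory lineage (33.3 ± 1.35), at 4.45 and 5.20 in GABAergic cells and at 2.32 and 2.62 in non-neural cells. In progenitor-marked cells it was at 38.9 and 34.2 CPM, the lower of these at about the higher of the excitatory values. A *Fezf2* UMI was present in 15.9% and 13.1% of the excitatory-lineage cells and in 0.995% and 1.65% of the non-neural cells. When each cell was thinned at random to 1500 UMIs the excitatory share was 3.55% and 3.77%, against 14.8% and 13.1% for *Tbr1*.

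The other deep-layer regulators were not restricted to the excitatory lineage. *Bcl11b* was at 200.2 and 180.01 CPM in it (190.1 ± 14.3) and at 726 and 625 in GABAergic cells, and *Tle4* at 164 and 124 (144 ± 28.1) against 262 and 248. *Sox5* was at 729.7 and 645 CPM (687 ± 60.1) against 299 and 269, and *Ldb2* at 199 and 204 (201 ± 3.57) against 51.5 and 56.2. *Zfpm2* was at 159 and 122 CPM (140.4 ± 26.2) against 80.0 and 79.9 in GABAergic cells, and at 289 and 206 in progenitor-marked cells, above the excitatory values.

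The upper-layer factors were closer to even between the excitatory lineage and the GABAergic cells, but not across the other classes. *Cux1* was at 383 and 358 CPM in the excitatory lineage (371 ± 17.2) and 336 and 313 in GABAergic cells, and *Cux2* at 191 and 191 (191 ± 0.136) against 163 and 152. In progenitor-marked cells *Cux2* was at 27.8 and 40.4 CPM and *Cux1* at 274 and 271. In non-neural cells *Cux2* was at 6.17 and 10.5 CPM and *Cux1* at 123 and 125. For each of the 9 genes the values of the excitatory lineage and of the GABAergic cells did not overlap, with 2 libraries each. How many of all genes did the same was not counted. Shares of cells with a UMI ran from 15.9% and 13.1% for *Fezf2* to 82.8% and 74.9% for *Sox5*, and were lower in the shallower replicate 2 for all 9 genes. Of the non-neural cells, 35.3% and 39.4% held a *Cux1* UMI, 16.9% and 27.8% *Tle4* and 17.9% and 25.2% *Sox5*. *Ldb2* was in 18.9% and 18.6% of them, *Zfpm2* in 15.9% and 14.6%, *Bcl11b* in 8.96% and 12.3% and *Cux2* in 3.48% and 4.95%.

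**Figure D1:**
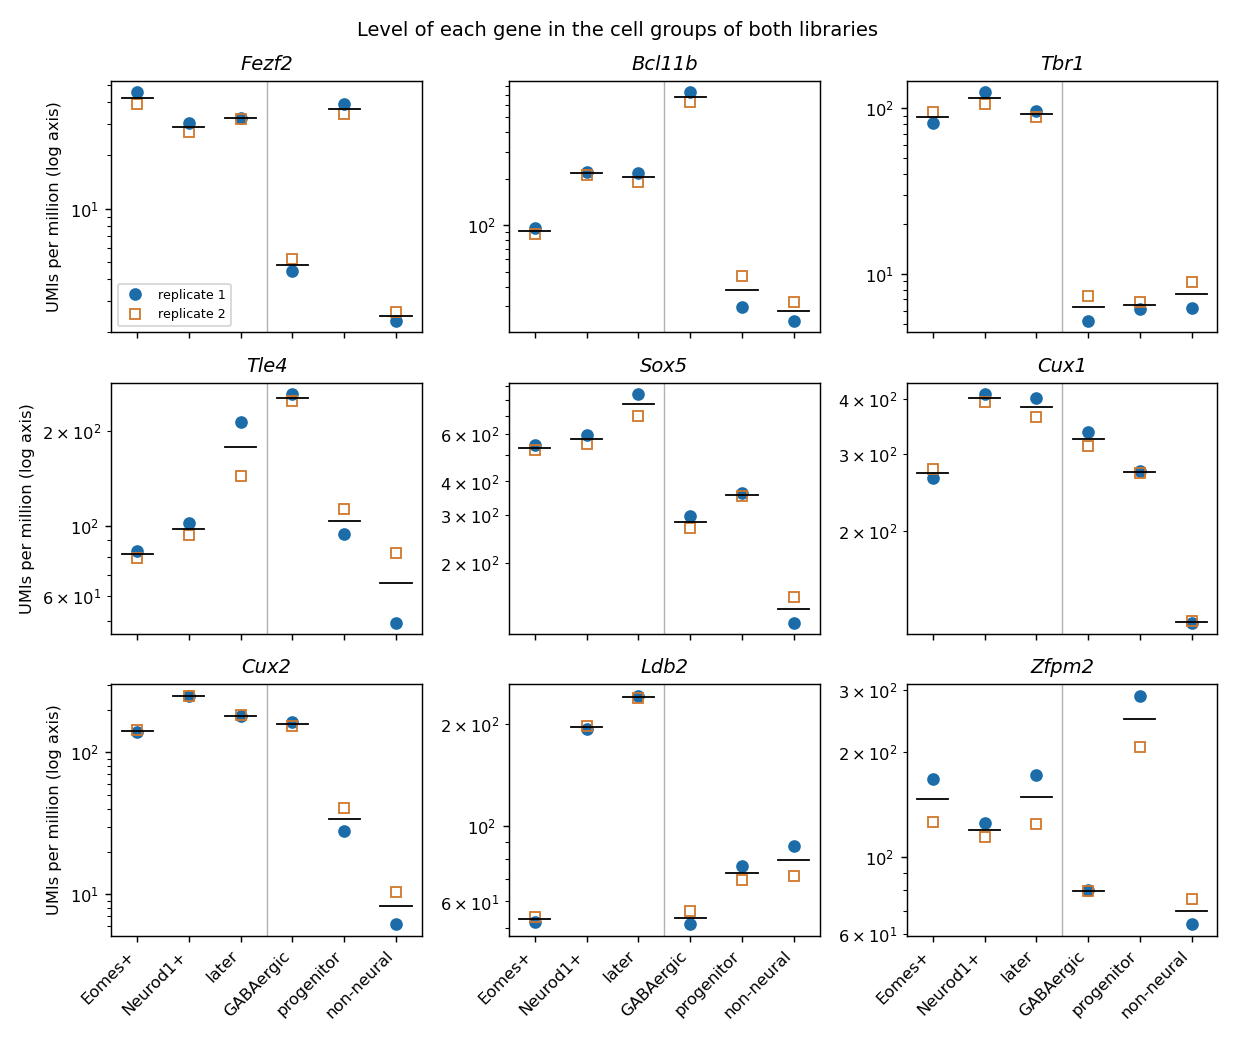
Level of each of the 9 genes in CPM (log axis, scaled for each gene) in 3 stages of the excitatory lineage and in GABAergic, progenitor-marked and non-neural cells. Filled circles are replicate 1, open squares replicate 2 and lines their mean. Tbr1 lay at 5.20 and 7.37 in GABAergic cells against 96.7 and 88.4 in later excitatory-lineage cells, and Bcl11b was higher in the GABAergic cells.

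The classes were compared with edgeR's quasi-likelihood test on the sums per library, with the library as a block and p-values adjusted by Benjamini-Hochberg over all genes tested. A gene was called at an adjusted p below 0.05, and differences are log2 fold changes ± SE. Relative to GABAergic cells, the excitatory lineage had 6 of the 9 regulators higher and 2 lower by this call, where 12.3% of all genes were called higher and 14.4% lower. *Tbr1* differed by 3.96 ± 0.14, *Fezf2* by 2.81 ± 0.14, *Ldb2* by 1.95 ± 0.11, *Sox5* by 1.33 ± 0.10 and *Zfpm2* by 0.84 ± 0.12. *Bcl11b* (-1.78 ± 0.13) and *Tle4* (-0.78 ± 0.14) were lower. *Cux2* differed by 0.33 ± 0.10, a call lost with DESeq2 and without the library block. *Cux1* differed by 0.24 ± 0.09 and was not called (edgeR adjusted p = 0.0594), but was called under 4 alternatives.

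Stages within the lineage were set by genes outside the 9. Cells with an *Eomes* UMI numbered 377 and 597 in replicates 1 and 2, cells with *Neurod1* and no *Eomes* UMI 625 and 896, and later cells, with neither, 1728 and 3278. *Ldb2* showed the widest step, from 52.4 and 54.2 CPM in the *Eomes*-positive cells to 193 and 197 in the *Neurod1*-positive and 241 and 238 in later cells, with no overlap. *Bcl11b* went from 95.2 and 88.1 CPM to 222 and 212 and then 219 and 189.8, the last 2 stages overlapping. *Tle4* was at 83.5 and 79.3, then 102 and 93.8, then 213 and 144 CPM, and *Sox5* at 544 and 522, then 593 and 552, then 841 and 700.2. The stages of both genes stayed apart, although their later cells differed more between the libraries than their earlier cells.

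*Cux2* was highest in the *Neurod1*-positive cells, at 250.1 and 251 CPM, against 139 and 145 in the *Eomes*-positive and 179 and 182 in later cells. *Cux1* was at 265 and 277, then 411 and 394, then 403 and 365 CPM, the last 2 overlapping. *Tbr1* was at 81.7 and 95.5, then 125 and 106, then 96.7 and 88.4 CPM, the first and last overlapping. *Fezf2* was highest at the first stage, at 45.5 and 39.3 CPM, against 30.6 and 27.3 and 32.7 and 32.4. *Zfpm2* was at 167 and 125, then 125 and 114, then 172 and 124 CPM, and its later cells overlapped both other stages.

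Of the 9 genes, 6 were called higher and 1 lower in later than in *Eomes*-positive cells, where 23.5% of all genes were called higher and 24.2% lower. *Ldb2* differed by 2.14 ± 0.07, *Bcl11b* by 1.12 ± 0.06, *Tle4* by 1.07 ± 0.10, *Sox5* by 0.49 ± 0.06, *Cux1* by 0.47 ± 0.06 and *Cux2* by 0.32 ± 0.06. *Fezf2* was lower (-0.40 ± 0.10), a call lost with DESeq2 and, at -0.15, with at least 3 *Neurod2* and *Neurod6* UMIs. *Tbr1* (0.01 ± 0.09) and *Zfpm2* (-0.02 ± 0.07) were not called. Against *Neurod1*-positive cells, 4 genes were called higher and 3 lower, where 9.22% of all genes were called higher and 9.24% lower. *Tle4* differed by 0.77 ± 0.09, *Sox5* by 0.36 ± 0.05, *Ldb2* by 0.23 ± 0.05 and *Zfpm2* by 0.22 ± 0.07, and *Cux2* by -0.54 ± 0.05, *Tbr1* by -0.38 ± 0.08 and *Bcl11b* by -0.16 ± 0.05. The *Bcl11b* call was lost under 7 alternatives. With DESeq2 the *Ldb2*, *Zfpm2* and *Tbr1* calls were lost too, and without the library block those of *Ldb2* and *Zfpm2*. The *Zfpm2* call was also lost with up to 1 Gad UMI, and the *Tbr1* call with at least 3 *Neurod2* and *Neurod6* UMIs. The 3 mural, 3 fibroblast, 3 microglial and 4 erythroid markers were called higher in later cells in both comparisons, and the 3 endothelial markers against *Eomes*-positive cells. Later cells were set only by the lack of *Eomes* and *Neurod1* UMIs, and 8 of 10 progenitor genes (list median 0.94) and 4 of 6 GABAergic genes were called higher in them than in *Neurod1*-positive cells. Against *Eomes*-positive cells 2 progenitor genes were called higher and 5 lower, and 3 GABAergic genes higher and 1 lower. Cells marked as another type had the non-neural or globin marks given above, or at least 10 UMIs of *Ttr* or of *Pf4*. Without them, 7 and 6 of the 9 genes were called, where 50.5% and 20.3% of all genes were. Against *Neurod1*-positive cells, 9 of 10 progenitor and 5 of 6 GABAergic genes were then called higher. The 4 erythroid genes were still called higher against *Eomes*-positive cells, and 2 of them and 1 mural marker against *Neurod1*-positive cells.

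Single cells held few molecules of these genes. The median cell had a UMI of 4 of the 9 genes, or of 2 after thinning to 1500 UMIs. None was found in 1.43% and 2.24% of the cells of replicates 1 and 2, and all 9 in 7 and 3 cells. *Fezf2* was mostly a single molecule, with exactly 1 UMI in 67.3% and 68.2% of the cells that had it. The highest cell of each library held 106 and 134 *Sox5* UMIs, and the cells with at least 10, 15.5% and 9.24% of the lineage, held 56.4% and 50.1% of its UMIs. *Tle4* and *Zfpm2* were concentrated in fewer cells. Cells with at least 10 *Tle4* UMIs, 3.48% and 1.61% of the lineage, held 43.7% and 31.6% of them, and such cells for *Zfpm2*, 3.41% and 1.76%, held 48.6% and 33.8%. For *Tbr1* there was 1 such cell in each library.

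Cells with a UMI of a gene were deeper than cells without for all 9 genes, at medians of 8724 and 7487 against 6786 and 5478 UMIs for *Fezf2*. Co-detection was therefore measured within 10 classes of total UMIs in each library, inside which cells still differed in depth, as the Mantel-Haenszel odds ratio of finding both genes in 1 cell, given here on the log2 scale. Cells of 1 library are not replicates, and no p-value was computed. Of the 36 pairs, 23 were above independence in both libraries and 12 below in both, and *Tbr1* with *Cux1* lay on either side (-0.04 and 0.03 in replicates 1 and 2).

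The upper-layer factors were found together more often than the depth classes gave. *Cux1* and *Cux2* were found together in 1328 and 2061 cells, where 1130.4 and 1726 were expected from the depth classes, with log2 odds ratios of 2.39 and 2.0, or 1.34 and 0.98 when cells were thinned to 1500 UMIs. A *Cux2* UMI was present in 66.4% and 63.7% of the cells with *Cux1* and in 26.5% and 29.8% of those without.

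Among the deep-layer regulators, *Fezf2* with *Zfpm2* was at 1.55 and 1.82. *Zfpm2* was present in 48.2% and 48.8% of the cells with *Fezf2* and in 21.2% and 17.8% of those without. *Tle4* with *Zfpm2* was at 1.54 and 1.31, *Bcl11b* with *Tle4* at 1.28 and 1.19 and *Bcl11b* with *Tbr1* at 1.15 and 0.91. *Bcl11b* with *Zfpm2* (0.99 and 1.01), *Fezf2* with *Tle4* (0.89 and 0.97) and *Fezf2* with *Bcl11b* (0.80 and 0.92) were above independence as well. *Fezf2* with *Tbr1* was not, at -0.23 and -0.02, and changed sign with at least 2 UMIs of each gene (0.40 and 0.14) and in later cells alone (0.02 and 0.11). The pair lay on either side of 0 without depth classes (-0.03 and 0.22) and with up to 1 Gad UMI (-0.29 and 0.01).

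*Fezf2*, *Bcl11b*, *Tle4*, *Ldb2* and *Zfpm2* were each found with *Cux1* and with *Cux2* less often than the depth classes gave. *Fezf2* and *Cux2* shared 153 and 193 cells where 249.7 and 334 were expected, at -1.69 and -1.67. *Fezf2* with *Cux1* was at -1.80 and -1.66, *Cux2* with *Zfpm2* at -1.51 and -1.56 and *Cux1* with *Zfpm2* at -1.44 and -1.12. *Bcl11b* with *Cux1* (-1.02 and -0.88), *Cux1* with *Ldb2* (-0.98 and -0.74) and *Cux2* with *Ldb2* (-0.84 and -0.78) followed, and *Tle4* with *Cux1* (-0.66 and -0.43), *Bcl11b* with *Cux2* (-0.31 and -0.29) and *Tle4* with *Cux2* (-0.30 and -0.26) lay nearer to 0. The exclusion was partial, since 35.3% and 30.9% of the cells with *Fezf2* held a *Cux2* UMI, against 59.6% and 56.1% of those without.

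*Tbr1* and *Sox5* did not follow that division. *Tbr1* was above independence with *Cux2* (0.73 and 0.36) as well as with *Tle4* (0.54 and 0.44), and *Sox5* with *Cux2* (0.83 and 0.82) as well as with *Tle4* (0.79 and 0.65) and *Zfpm2* (0.94 and 0.60). *Tle4* with *Ldb2* was below at -0.23 and -0.28 and above when cells were thinned to 1500 UMIs (0.27 and 0.35) or at least 2 UMIs of each were required (0.28 and 0.16). In 33 of the 36 pairs the mean of the libraries kept its sign under all 9 alternatives. Without the cells marked as another type, 21 pairs were above independence, and *Fezf2* with *Sox5* and *Sox5* with *Cux1* then lay on either side of 0.

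**Figure D2:**
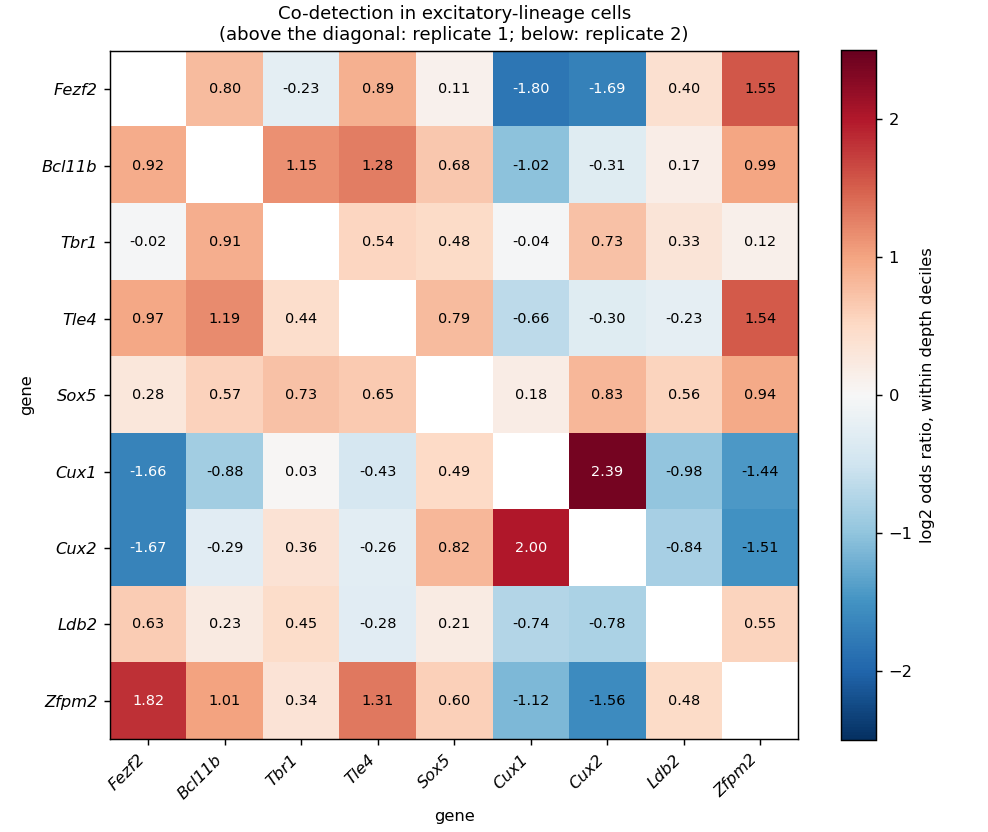
Log2 odds ratio of finding 2 genes in the same excitatory-lineage cell within 10 depth classes, as colour, with replicate 1 above the diagonal and replicate 2 below it. Cux1 with Cux2 was at 2.39 and 2.0 and Fezf2 with Cux2 at -1.69 and -1.67.

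The shares also moved with the number of molecules. After thinning to 1500 UMIs, a *Fezf2* UMI was present in 4.37% and 4.65% of the cells of replicates 1 and 2 with no *Cux2* UMI, in 0.847% and 1.46% of those with 1 and in 1.45% and 0.398% of those with 2. *Zfpm2* was present in 14.3% and 12.1% of the cells with no *Cux2* UMI and in 5.51% and 4.16% of those with 1. *Cux1* went the other way, from 33.2% and 32.7% with no *Cux2* UMI to 73.7% and 56.9% with 3 or more.

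Cells with at least 3 *Tle4* UMIs after thinning, 91 and 88 in the libraries, often held other deep-layer regulators, to unequal degrees. Of them, 61.5% and 60.2% held a *Bcl11b* UMI, against 18.9% and 18.8% of the cells with no *Tle4* UMI, and 54.9% and 56.8% a *Zfpm2* UMI against 8.97% and 7.76%. *Sox5* was in 95.6% and 89.8% against 45.8% and 42.6%, and *Cux2* in 3.30% and 2.27% against 25% and 25.8%. *Fezf2* was in 13.2% and 10.2% against 2.77% and 3.13%, and *Tbr1* in 28.6% and 26.1% against 13.7% and 12.5%. *Ldb2* was in 39.6% and 37.5% of them, in 14.6% and 15.7% of the cells with 1 *Tle4* UMI and in 17.7% and 16.9% of those with none.

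*Fezf2*, *Bcl11b* and *Tbr1* occurred in all 8 combinations. None of the 3 was found in 31.6% and 36.8% of the cells of replicates 1 and 2, *Bcl11b* alone in 17.1% and 19.0%, *Tbr1* alone in 15.0% and 16.0% and *Bcl11b* with *Tbr1* in 20.4% and 15.2%. *Fezf2* alone was found in 4.07% and 4.09%, with *Bcl11b* in 5.24% and 3.86%, with *Tbr1* in 2.23% and 1.61%, and all 3 in 4.36% and 3.54%. Cells with all 3 were deeper than cells with none, at medians of 9044 and 7825 against 6283 and 5178 UMIs.

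**Figure D3:**
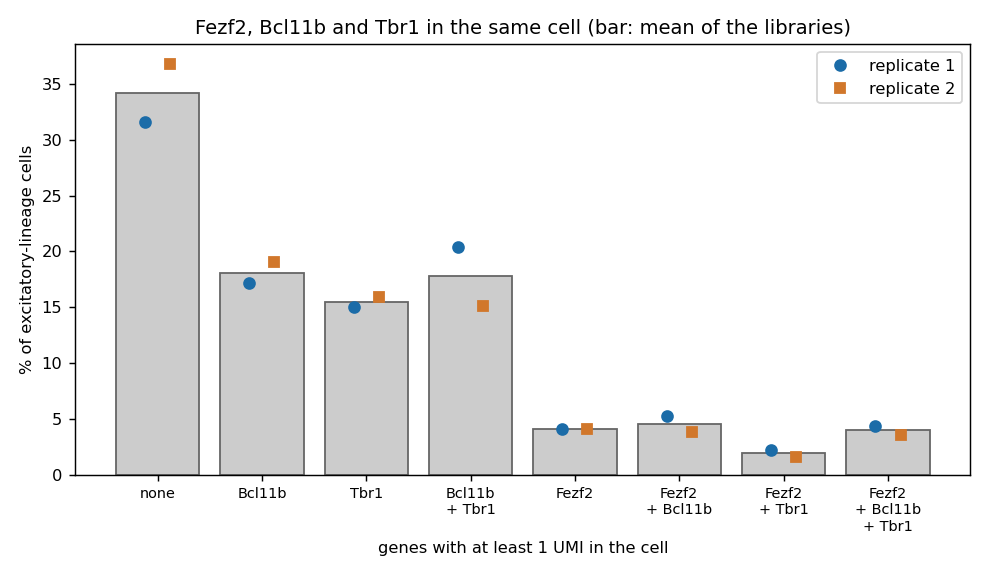
Share of excitatory-lineage cells (%) with each combination of Fezf2, Bcl11b and Tbr1 UMIs. Bars are means of the libraries and points the libraries. Fezf2 without the other 2 was found in 4.07% and 4.09% of the cells.

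The levels of the other 8 genes were then compared between cells with and without a UMI of each gene in turn, in 9 tests on 4 sums each. Of the 72 ordered pairs, 41 were called higher and 24 lower in the positive cells, and 7 were not called, of which 6 involved *Tbr1*. Over the 9 tests, between 4.62% and 15.5% of all genes were called higher and between 3.03% and 14.8% lower, 18.6% in either direction when pooled. All 65 called pairs had the same sign in both libraries, which calls made on these same libraries nearly fix in advance. Of the pairs, 25 differed by 1 or more on the log2 scale, and the share of all genes that did so was not counted. Without the cells marked as another type the counts were also 41 and 24, and after thinning they were 38 and 21, where 18.8% and 7.75% of all genes were called. The positive cells held less globin RNA for every gene, for *Fezf2* 0.0712% and 0.211% of UMIs against 0.459% and 0.872%, and the 4 erythroid genes were called lower in all 9 tests. Of the 6 GABAergic genes tested, 5 were called lower in *Fezf2*-positive and in *Ldb2*-positive cells, 4 in *Tbr1*-positive, 3 in *Cux2*-positive, 2 in *Sox5*-positive and 1 in *Tle4*-positive cells. In *Zfpm2*-positive cells 1 was called higher and 2 lower, in *Bcl11b*-positive cells 3 were called higher, and in *Cux1*-positive cells none was called. The 3 hippocampal genes were called higher in *Fezf2*-positive and *Zfpm2*-positive cells and lower in *Cux2*-positive and *Ldb2*-positive cells, with 1 or 2 called higher in each of the other 5 tests and 1 lower in 3 of them. Of the 10 progenitor genes, 8 were called lower in *Tbr1*-positive, 9 in *Cux2*-positive and 7 in *Ldb2*-positive cells, and 3 were called higher in *Tle4*-positive and 2 in *Sox5*-positive cells. The 3 mural, 3 fibroblast and 3 microglial markers were called lower in *Bcl11b*-positive and *Tbr1*-positive cells, with 1 endothelial marker lower in the latter. In *Zfpm2*-positive cells 2 endothelial, 2 mural and 3 microglial markers were called lower and 2 fibroblast markers higher, and in *Cux1*-positive cells 1 mural and 2 fibroblast markers lower and 1 endothelial marker higher. Without the cells marked as another type, all 4 erythroid genes were still called lower in *Fezf2*-, *Tbr1*-, *Sox5*-, *Cux1*-, *Ldb2*- and *Zfpm2*-positive cells. In *Tle4*-positive cells 3 of them were, in *Cux2*-positive cells 2 and in *Bcl11b*-positive cells 1. The part of these markers in the results was not tested.

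The lists of neuronal stage and layer went both ways across the tests. Of the 9 maturation genes, 7 were called higher in *Bcl11b*-positive cells, 7 higher and 2 lower in *Tbr1*-positive, 5 higher and 1 lower in *Fezf2*-positive, 3 higher and 5 lower in *Zfpm2*-positive, 2 higher and 4 lower in both *Sox5*-positive and *Tle4*-positive, and 1 higher and 7 lower in *Cux2*-positive cells. Of the 8 newborn genes, 6 were called higher in *Sox5*-positive and in *Zfpm2*-positive cells, 2 higher and 5 lower in *Bcl11b*-positive, 2 higher and 3 lower in *Tle4*-positive, 3 higher and 3 lower in *Tbr1*-positive, and 4 higher and 4 lower in *Cux2*-positive cells. Of the 11 upper-layer genes, 2 were called higher and 9 lower in *Zfpm2*-positive cells, 3 and 8 in *Bcl11b*-positive, 2 and 7 in *Tle4*-positive, 5 and 2 in *Sox5*-positive, and 6 and 4 in *Ldb2*-positive cells. Of the 7 layer 5 genes, 6 were called higher in *Zfpm2*-positive cells, 5 higher and 1 lower in *Tle4*-positive, 4 higher in *Bcl11b*-positive, 4 higher and 1 lower in *Ldb2*-positive, 2 higher and 2 lower in *Sox5*-positive, 1 higher and 3 lower in *Tbr1*-positive, and 1 higher and 5 lower in *Cux1*-positive cells. Of the 6 layer 6 genes 4 were called higher in *Sox5*-positive and in *Ldb2*-positive cells, and none lower.

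*Fezf2*-positive cells (434 and 625) held more of the deep-layer set. *Zfpm2* was at 315 and 282 CPM in them against 119 and 88.3 in the *Fezf2*-negative cells of replicates 1 and 2, and *Tle4* at 264 and 257 against 138 and 96.3. *Cux2* was at 78.7 and 72.5 CPM against 219.8 and 216, and *Cux1* at 193 and 170.1 against 431 and 398. None of these values overlapped. In all, 5 of the 8 genes were called higher and 3 lower, where 10.2% of all genes were called higher and 8.68% lower. *Zfpm2* differed by 1.58 ± 0.05, *Tle4* by 1.22 ± 0.05, *Sox5* by 0.88 ± 0.04, *Bcl11b* by 0.71 ± 0.05 and *Ldb2* by 0.66 ± 0.05, the last lost with DESeq2. *Cux2* differed by -1.49 ± 0.06, *Cux1* by -1.16 ± 0.05 and *Tbr1* by -0.26 ± 0.07, the last lost under 4 alternatives and at -0.080 in later cells alone.

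Of 6 genes known from layer 6 corticothalamic neurons, 5 were called higher in *Fezf2*-positive cells and none lower (median 1.04), and of 7 layer 5 subcerebral genes 5 were called higher and none lower. Of 11 upper-layer and callosal genes 2 were called higher and 7 lower, among the latter the semaphorin co-receptor gene *Plxna4* (-1.08). Of the 10 progenitor genes 7, and of the 8 newborn genes 4, were called higher and none lower. The 3 endothelial, 3 mural, 3 fibroblast and 3 microglial markers were called lower, and none of those still tested was called without the cells marked as another type. The medians over all genes lay within 0.02 of 0 in the 9 tests. By the naming rule, the genes with the largest rise in *Fezf2*-positive cells were *Gucd1* (2.08 ± 0.13), *Sgcz*, a sarcoglycan gene (2.02 ± 0.09), and *Galntl6* (1.95 ± 0.07).

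*Bcl11b*-positive cells (1286 and 1984) had *Tle4* at 255 and 205 CPM against 74.5 and 62.2 and *Zfpm2* at 245 and 188 against 74.2 and 71.7. Of the 8 genes, 6 were called higher and 2 lower, where 10.1% of all genes were called higher and 10.4% lower. *Tle4* differed by 1.75 ± 0.05, *Zfpm2* by 1.55 ± 0.06, *Fezf2* by 1.12 ± 0.08, *Sox5* by 0.97 ± 0.03, *Tbr1* by 0.79 ± 0.05 and *Ldb2* by 0.42 ± 0.04. *Cux1* differed by -0.64 ± 0.04 and *Cux2* by -0.20 ± 0.04, the latter lost with DESeq2 and without the library block. All 6 layer 6 genes were called higher and all 10 progenitor genes lower. *Hs3st4*, a heparan sulfate sulfotransferase gene on the layer 6 list (3.42 ± 0.06), *Tafa1*, a gene for a secreted chemokine-like protein (3.03 ± 0.07), and *Nell1* (2.83 ± 0.12) rose most.

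*Tbr1*-positive cells (1145 and 1730) had *Tle4* at 214 and 169 CPM against 124 and 94.9 and *Bcl11b* at 256 and 231 against 155 and 147. *Fezf2*, at 34.9 and 33.0 CPM against 33.7 and 31.9, differed by 0.07 ± 0.08 and was not called, nor was *Cux1* (0.09 ± 0.03). The 6 other genes were called higher, where 6.49% of all genes were called higher and 7.83% lower. *Tle4* differed by 0.83 ± 0.04, *Bcl11b* by 0.70 ± 0.04, *Zfpm2* by 0.53 ± 0.06, *Ldb2* by 0.36 ± 0.04, *Sox5* by 0.36 ± 0.03 and *Cux2* by 0.31 ± 0.06. The calls of *Zfpm2*, *Ldb2* and *Cux2* were lost after thinning, and those of *Zfpm2*, *Sox5* and *Cux2* without the library block. The *Cux2* call was also lost with DESeq2, and *Cux1* was called with doublets removed (0.12) and in later cells alone (0.13). All 6 layer 6 genes were called higher, and of the 11 upper-layer genes 6 were called higher and 1 lower. *Tfap2d*, a transcription factor gene (1.67 ± 0.08), *Hs3st4* (1.64 ± 0.09) and *Dpp10*, which encodes an auxiliary subunit of potassium channels (1.49 ± 0.06), rose most.

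*Tle4*-positive cells (1006 and 1391) had *Zfpm2* at 274 and 231 CPM against 79.5 and 69.9. Of the 8 genes, 5 were called higher, where 5.26% of all genes were, and 3 lower, where 3.03% were. *Zfpm2* differed by 1.72 ± 0.04, *Sox5* by 0.91 ± 0.05, *Fezf2* by 0.90 ± 0.07, *Bcl11b* by 0.86 ± 0.05 and *Tbr1* by 0.28 ± 0.06. *Cux1* differed by -0.44 ± 0.04, *Cux2* by -0.26 ± 0.04 and *Ldb2* by -0.17 ± 0.04. The *Ldb2* difference turned to 0.28 after thinning and to 0.035 in later cells alone, and its call was lost under 5 other alternatives. The calls of *Tbr1* and *Cux2* were lost with DESeq2 and without the library block.

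All 6 layer 6 genes were called higher in *Tle4*-positive cells, led by *Hs3st4* at 287 and 231 CPM against 8.24 and 8.97 (4.83 ± 0.08). The 4 Cajal-Retzius genes, markers of marginal-zone neurons, were called higher too, *Reln* by 2.84 ± 0.08. Of these 4, 2 were called higher in *Bcl11b*-positive and *Tbr1*-positive cells, and 1 in *Zfpm2*-positive cells. In *Ldb2*-positive cells 3 were called lower, and in *Cux2*-positive and *Sox5*-positive cells 2. In *Fezf2*-positive and *Cux1*-positive cells 1 was called higher and 1 lower. *Ttr*, which encodes a carrier protein made by choroid plexus, and *Pf4*, a macrophage chemokine gene, ranked after *Hs3st4* by the naming rule, at 4.14 ± 0.13 and 3.39 ± 0.20. Of the 263 and 11374 *Ttr* UMIs of the *Tle4*-positive cells, 261 lay in 1 cell of replicate 1 and 11001 in 2 cells of replicate 2, and of the 222 and 692 *Pf4* UMIs, 211 lay in 2 cells and 663 in 8. The 3 endothelial and 3 microglial markers were also called higher, and 2 of 3 mural markers lower (list median -2.12). Without the cells marked as another type, *Ttr* differed by -0.11 and *Pf4* by -0.75, neither called, none of those markers still tested was called, and *Hs3st4* differed by 4.90.

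*Sox5*-positive cells, 2261 and 3575 and so most of the lineage, had 6 genes called higher and none lower, where 4.62% of all genes were called higher and 4.73% lower. *Tle4* was at 177 and 139.6 CPM in them against 79.1 and 67.1, a difference of 1.07 ± 0.06. *Zfpm2* differed by 0.58 ± 0.07, *Fezf2* by 0.51 ± 0.10, *Cux2* by 0.38 ± 0.06, *Ldb2* by 0.35 ± 0.05 and *Cux1* by 0.27 ± 0.05. The *Fezf2* call was lost with DESeq2, and the *Cux1* call after thinning and without the library block. *Bcl11b* (0.05 ± 0.05) and *Tbr1* (0.20 ± 0.07) were not called, but were called under 3 and 5 alternatives. There *Bcl11b* differed by 0.24 to 0.41 and *Tbr1* by 0.24 to 0.30. The 3 endothelial, 3 fibroblast and 3 microglial markers were called lower and 2 of 3 mural markers higher, and without the cells marked as another type none of those still tested was called. *Hs3st4* (2.41 ± 0.09), *Dpp10* (1.95 ± 0.11) and *Ltbp1*, which encodes a binding protein of latent TGF-beta (1.48 ± 0.11), rose most.

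In *Cux1*-positive cells (1999 and 3233), 1 of the 8 genes was called higher, where 7.61% of all genes were, and 6 lower, where 9.80% were. *Cux2* was at 227 and 231 CPM against 73.0 and 92.6 (1.40 ± 0.07), and *Fezf2* at 23.2 and 20.3 against 70.5 and 61.6 (-1.65 ± 0.08). *Tle4* differed by -1.49 ± 0.07, *Zfpm2* by -1.32 ± 0.09, *Ldb2* by -1.18 ± 0.06, *Bcl11b* by -1.15 ± 0.05 and *Sox5* by -1.11 ± 0.06, while *Tbr1* was not called (-0.15 ± 0.06). *Adamtsl3*, a matrix protein gene (1.94 ± 0.10), *Gm16599* (1.89 ± 0.07) and *Top2a*, the topoisomerase gene of cycling cells (1.83 ± 0.09), rose most. Of the 10 progenitor genes 7, and of the 8 newborn genes 6, were called higher and none lower, and of the 9 maturation genes 8 were called lower and 1 higher. Of the 11 upper-layer genes 8 were called higher and 3 lower, and 5 of the 6 layer 6 genes were called lower. *Gm16599* is an antisense gene that overlaps *Cux1* in the GENCODE annotation, so its value is uncertain as a separate gene. *Top2a* was at -0.051 after thinning.

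In *Cux2*-positive cells (1522 and 2519), 2 genes were called higher, where 12.6% of all genes were, and 6 lower, where 14.8% were. *Cux1* was at 514 and 479 CPM against 206 and 218 (1.27 ± 0.05), and *Tbr1* at 113 and 99.9 against 85.6 and 84.9 (0.36 ± 0.06), a call lost after thinning and with at least 3 *Neurod2* and *Neurod6* UMIs. *Fezf2* was at 17.8 and 15.5 CPM against 56.3 and 51.9 (-1.66 ± 0.08). *Zfpm2* differed by -1.62 ± 0.05, *Tle4* by -1.23 ± 0.05, *Ldb2* by -0.99 ± 0.05, *Bcl11b* by -0.67 ± 0.04 and *Sox5* by -0.64 ± 0.04. Of the 11 upper-layer genes 8 were called higher, among them the netrin receptor gene *Unc5d* (1.42) and *Plxna4* (1.08). The 3 called lower were *Rorb* (-0.85), *Mef2c* (-0.19) and *Lpl* (-1.66). All 6 layer 6 genes and 6 of 7 layer 5 genes were called lower. The 3 endothelial, 3 mural, 3 fibroblast and 3 microglial markers were called lower as well (list medians -1.31, -2.85, -1.91 and -1.52), and without the cells marked as another type 1 mural marker was.

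*Ttr* (4.27 ± 0.11), *Adamtsl3* (2.16 ± 0.08) and *Ndst3*, a heparan sulfate enzyme gene (1.45 ± 0.05), rose most in *Cux2*-positive cells. Of the 263 and 12162 *Ttr* UMIs, 261 lay in 1 cell of replicate 1 and 11496 in 5 cells of replicate 2, and without the cells marked as another type *Ttr* differed by 0.06.

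For *Sox5*, detection and level went opposite ways in cells with an upper-layer factor. A *Sox5* UMI was found with *Cux2* more often than the depth classes gave, while the *Sox5* level was 592 and 494 CPM in *Cux2*-positive cells against 915 and 821 in *Cux2*-negative cells. *Sox5* with *Cux1* was at log2 odds ratios of 0.18 and 0.49, with a *Sox5* level of 572 and 499.7 CPM in *Cux1*-positive against 1251 and 998 in *Cux1*-negative cells. That odds ratio lay on either side of 0 with at least 3 *Neurod2* and *Neurod6* UMIs (-0.06 and 0.38) and in later cells alone (-0.08 and 0.35). In the other direction, the levels of *Cux2* and *Cux1* were higher in *Sox5*-positive cells, as given above. Of the 23 pairs above independence, 17 were called higher in both directions of testing, and of the 12 below, 10 were called lower in both. Odds ratios and levels came from the same UMIs of the same cells, so neither is independent support for the other.

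In *Ldb2*-positive cells (955 and 1555), 5 of the 8 genes were called higher, where 13.2% of all genes were, and 2 lower, where 12.8% were. *Sox5* was at 1037 and 943 CPM against 543 and 462 (1.0 ± 0.06). *Fezf2* differed by 0.96 ± 0.10, *Tle4* by 0.73 ± 0.06, *Zfpm2* by 0.61 ± 0.05 and *Bcl11b* by 0.43 ± 0.05. *Cux2* differed by -0.50 ± 0.06 and *Cux1* by -0.17 ± 0.05, the latter lost under 3 alternatives, and *Tbr1* was not called (0.09 ± 0.06). *Gm43507* (4.12 ± 0.11), *Kcnq5*, a potassium channel gene (2.84 ± 0.07), and *Igfbp3*, which encodes a binding protein of insulin-like growth factors (2.65 ± 0.16), rose most. *Gm43507* is annotated by GENCODE on the opposite strand and overlaps *Ldb2*, so its reads may not be separable from those of the gene that chose the cells. Of 9 maturation genes 8 were called higher, all 8 newborn genes were called lower, the 3 endothelial markers were called higher, and the 3 microglial and 2 of 3 mural markers were called lower. Without the cells marked as another type, none of these markers still tested was called.

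In *Zfpm2*-positive cells (695 and 1044), 5 of the 8 genes were called higher, where 15.5% of all genes were, and 2 lower, where 10.1% were. *Tle4* was at 347 and 277 CPM against 87.0 and 68.5 (1.97 ± 0.04), the largest difference of the 72, and *Fezf2* at 68.3 and 66.7 against 19.9 and 19.8 (1.72 ± 0.08). *Sox5* differed by 1.06 ± 0.03, *Bcl11b* by 0.74 ± 0.04 and *Ldb2* by 0.39 ± 0.05, *Cux2* by -1.28 ± 0.05 and *Cux1* by -1.03 ± 0.04, and *Tbr1* was not called (0.03 ± 0.05). All 6 layer 6 genes were called higher, and so were all 10 progenitor genes, *Sox2* by 1.61 ± 0.09 and *Hes5* by 1.92 ± 0.15. *Hs3st4* (4.44 ± 0.06), *Dpp10* (3.25 ± 0.07) and *Tnc*, the gene of the matrix protein tenascin C (3.0 ± 0.08), rose most.

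**Figure D4:**
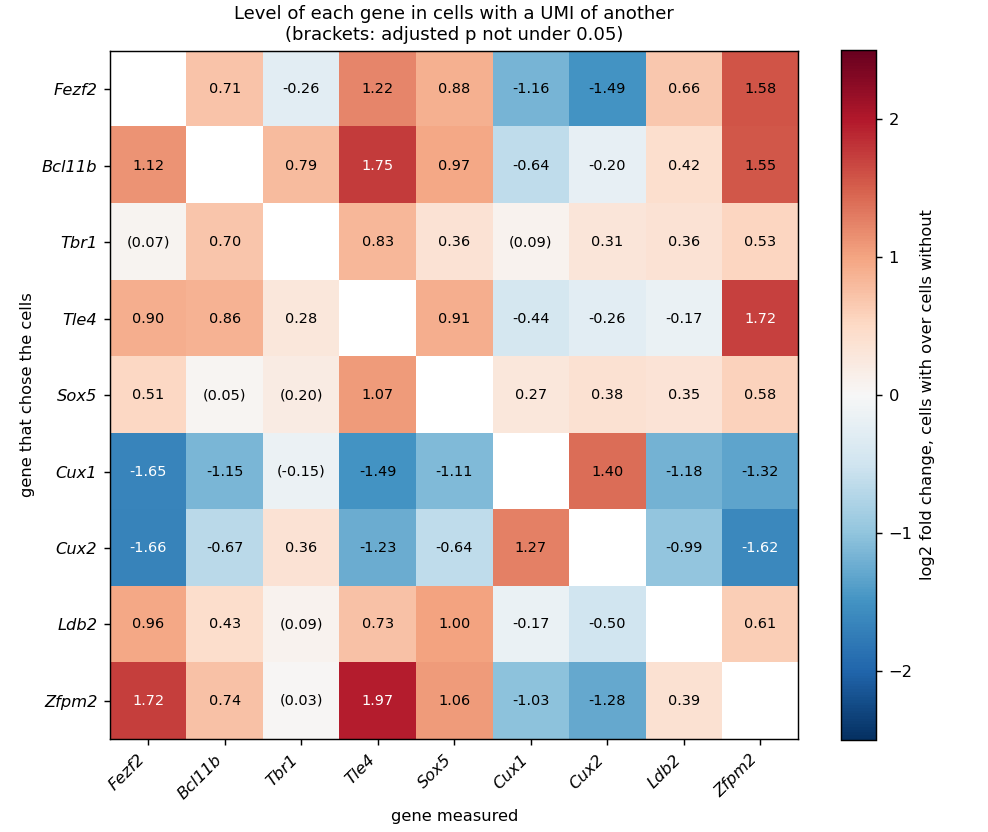
Log2 fold change of each gene (columns) between excitatory-lineage cells with and without a UMI of another gene (rows), from edgeR's quasi-likelihood test. Values in brackets were not called, and 6 of those 7 involved Tbr1. In Zfpm2-positive cells the values ran from -1.28 for Cux2 to 1.97 for Tle4.

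Cells with *Fezf2* and no *Cux2* UMI (281 and 432) were set against cells with *Cux2* and no *Fezf2* UMI (1369 and 2326), a deep-layer against an upper-layer factor. *Zfpm2* was at 383 and 339 CPM against 65.8 and 47.9, *Tle4* at 332 and 321 against 91.7 and 71.3, and *Cux1* at 114 and 104 against 542 and 499.5. Of the 7 regulators outside the gate, 5 were called higher and 2 lower in the *Fezf2*-only cells, where 14.3% of all genes were called higher and 11.2% lower (2050 and 1607 genes). *Zfpm2* differed by 2.71 ± 0.07, *Tle4* by 2.04 ± 0.07, *Ldb2* by 1.41 ± 0.07, *Sox5* by 1.32 ± 0.06 and *Bcl11b* by 1.2 ± 0.06. *Cux1* differed by -2.24 ± 0.07 and *Tbr1* by -0.40 ± 0.08, the latter lost with DESeq2, after thinning and in later cells alone. With DESeq2 950 genes were called in all, and after thinning 509.

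All 6 layer 6 genes were called higher in the *Fezf2*-only cells, with a list median of 1.72 against 0.00 over all genes. *Hs3st4* was at 311 and 285 CPM against 15.4 and 10.5 (4.58 ± 0.09) and *Grik3*, a kainate receptor gene, at 75.4 and 76.0 against 5.96 and 6.35 (3.64 ± 0.15). Of the 7 layer 5 genes 5 were called higher, led by *Crym*, which encodes a thyroid-hormone-binding protein (3.48 ± 0.16), and *Pcp4*, a calmodulin regulator gene, was called lower (-0.21 ± 0.07). Of the 11 upper-layer genes 8 were called lower, with *Plxna4* at 339 and 376 CPM against 1499 and 1423 and *Unc5d* at 663 and 496 against 2142 and 1796. *Rorb* (1.14), *Lpl* (2.65) and *Mef2c* (0.21) of that list were called higher. Of the 10 progenitor genes 9 were called higher, among them *Pax6* (1.21) and *Sox2* (1.05). The newborn list went both ways, with 4 of 8 genes called higher, among them *Eomes* (1.01) and *Neurog2* (1.46), and 3 lower, *Neurod1* (-0.30), *Sstr2* (-0.64) and *Rnd2* (-0.49). Of the 9 maturation genes 8 were called higher and 1 lower.

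By the naming rule, *Npr3*, a clearance receptor gene for natriuretic peptides, at 24.3 and 28.1 CPM against 0.961 and 0.614 (5.11 ± 0.31), *Igfbp3* (3.93 ± 0.21) and *Pcsk5*, a proprotein convertase gene (3.81 ± 0.19), rose most beside *Hs3st4* and *Grik3*. *Cdh12*, a cadherin gene, was at 38.8 and 50.9 CPM against 451 and 407 (-3.21 ± 0.08), and *Adamtsl3* (-3.20 ± 0.17), *2700069I18Rik* (-2.87 ± 0.24, antisense to *Zfhx4*) and *Tafa2* (-2.75 ± 0.07) were lower as well. The call of *2700069I18Rik* was lost after thinning (-2.01). The 3 hippocampal genes were called higher in the *Fezf2*-only cells, and 3 of 4 erythroid genes, 2 of 3 endothelial, 2 of 3 microglial and 1 of 3 fibroblast markers and 2 of 6 GABAergic genes lower. *Ttr* (-4.79 ± 0.12) was at -0.48 without the cells marked as another type.

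Cells with *Tbr1* and no *Bcl11b* UMI (470 and 838) were set against cells with *Bcl11b* and no *Tbr1* UMI (611 and 1092), a layer 6 against a layer 5 factor. *Tle4* was at 79.0 and 63.7 CPM against 200.05 and 151, *Zfpm2* at 64.7 and 73.8 against 236 and 145 and *Fezf2* at 23.9 and 18.3 against 50.6 and 48.9. *Cux1* was at 549 and 458 CPM against 264 and 285, and *Cux2* at 267 and 223 against 147 and 172. Of the 7 regulators outside the gate, 2 were called higher and 4 lower in the *Tbr1*-only cells, where 3.01% of all genes were called higher and 4.61% lower (409 and 626 genes). *Cux1* differed by 0.87 ± 0.07 and *Cux2* by 0.61 ± 0.09, the latter lost with DESeq2. *Zfpm2* differed by -1.36 ± 0.13, *Tle4* by -1.28 ± 0.07, *Fezf2* by -1.26 ± 0.13 and *Sox5* by -0.70 ± 0.04, and *Ldb2* was not called (-0.05 ± 0.05).

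The lists of both deep layers were higher on the *Bcl11b* side. Of the 6 layer 6 genes 5 were called lower in the *Tbr1*-only cells and none higher, with a list median of -1.35 against 0.00 over all genes, and *Hs3st4* was at 31.5 and 24.9 CPM against 158 and 83.7 (-2.02 ± 0.12). Of the 7 layer 5 genes 4 were called lower, led by *Crym* at 2.74 and 4.04 CPM against 49.7 and 37.6, and *Pcp4* was called higher (0.51 ± 0.08). Of the 11 upper-layer genes 9 were called higher and none lower, with *Inhba*, an activin subunit gene, at 34.8 and 53.9 CPM against 7.93 and 10.6. Of the 8 newborn genes 3 were called higher and none lower, *Eomes* by 1.23 ± 0.09 and *Neurod1* by 0.47 ± 0.08, and of the 10 progenitor genes 4 were called higher and none lower. Of the 9 maturation genes 5 were called lower, among them the neurofilament genes *Nefl* (-1.52 ± 0.14) and *Nefm* (-1.22 ± 0.13), and 1 higher. Of 6 GABAergic genes tested 4 were called lower, as were the 3 endothelial markers, 1 mural marker, 1 erythroid gene and 1 hippocampal gene, while 1 microglial marker was called higher. Their part in the result was not tested.

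By the naming rule, *Gm49678* (1.81 ± 0.09), *Kif26b*, a kinesin-family gene (1.61 ± 0.09), *Ccbe1* (1.55 ± 0.07) and *Lama2*, a laminin gene (1.45 ± 0.13), followed *Inhba* among the rises, and *Lama2* was at 0.078 in later cells alone. *Slit3*, an axon guidance ligand gene, was at 12.9 and 13.5 CPM against 228 and 221 (-4.06 ± 0.09). *Tafa1* (-3.40 ± 0.09), *Nxph1*, which encodes a neurexin ligand (-2.98 ± 0.17), and *Pcsk5* (-2.91 ± 0.19) were lower beside *Crym*.

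**Figure D5:**
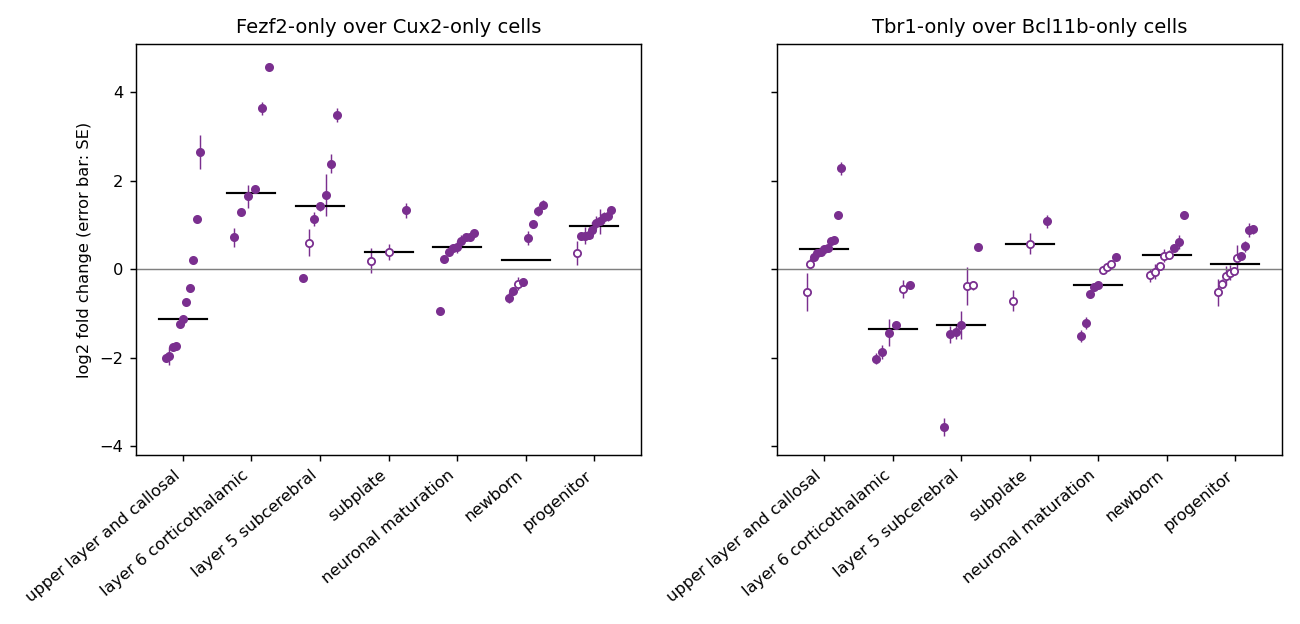
Log2 fold change (error bars, SE) of marker-list genes between Fezf2-only and Cux2-only cells and between Tbr1-only and Bcl11b-only cells. Filled points were called, open points were not, and lines are list medians. The layer 6 corticothalamic median was 1.72 in the first comparison and -1.35 in the second.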

How the data were processed

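Raw UMI counts per gene and cell barcode of 2 WT libraries were deposited by the authors, aligned and counted with Cell Ranger (7.1.0 in the file header, 7.0.0 in the submitters' processing notes) against mm10. The lowest barcode total was 500 UMIs. Cells with 1500 to 60000 UMIs and under 10% mitochondrial UMIs were kept, 65.9% and 75.6% of barcodes. Doublets scored with Scrublet (scanpy 1.11.5; 0.8% per 1000 barcodes, 432 and 1111 cells) were kept and removed as an alternative. UMI counts were summed per library and group and tested with edgeR 4.0.16 (quasi-likelihood, TMM, library as a block because both groups of a comparison come from the same libraries, at least 10 counts in 2 sums, Benjamini-Hochberg) in R 4.3.3, after tests on simulated data. DESeq2 1.42.0 was an alternative. Other steps used Python 3.11.15. Thinning drew 1500 UMIs per cell. Cells marked as another type held at least 2 non-neural UMIs, 5% globin UMIs, or 10 UMIs of *Ttr* or *Pf4*, and leaving them out was an alternative chosen after seeing the data. Beside list genes, the text names the 3 genes called higher with the largest rise at 20 CPM or more in both libraries, and 5 in each direction for the single-positive comparisons. The members and lists were chosen with earlier results of these data known. Single cells hold few UMIs, so a cell without a UMI of a gene may still express it. The values of 1 list gene are not reported here.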

Additional observations from a re-analysis of the deposited data

How the results depend on the processing

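Over the alternatives with a test, the 41 higher regulator pairs ranged from 36 to 44 and the 24 lower pairs from 19 to 24, with 36 and 19 without the replicate block. In the same 9 tests the pooled share of all genes called was 18.6%, against 5.20% with DESeq2, 7.75% after thinning, 9.64% without the replicate block and 13.4% to 20.3% under the others. The 23 pairs above independence ranged from 21 to 25. The count of regulators called between later and *Neurod1*-positive cells fell from 7 to 3 with DESeq2 and 4 without the replicate block, while the share of all genes called there fell from 18.5% to 5.65% and 10.1%. The genes called between *Tbr1*-only and *Bcl11b*-only cells fell from 1035 to 279 with DESeq2, 469 without the replicate block and 281 after thinning. Those between *Fezf2*-only and *Cux2*-only cells fell from 3657 to 950 with DESeq2, 509 after thinning and 2324 in later cells alone. With 1 library left out there was no test, and the called results that kept their sign in the other library were counted: 41 regulator pairs higher and 24 lower, 3639 to 3646 genes for *Fezf2*-only against *Cux2*-only cells, 1035 for *Tbr1*-only against *Bcl11b*-only cells, 7, 7 and 8 regulators for the stage and class comparisons, and 23 to 24 pairs above independence. The calls had been made on both libraries together, so the kept signs are no independent check. After thinning, *Top2a* in *Cux1*-positive cells turned to -0.051, *Ttr* to -0.99 in *Cux2*-positive and -2.09 in *Tle4*-positive cells, *Ldb2* in *Tle4*-positive cells to 0.28 (and 0.035 in later cells alone), and the mean log2 odds ratio of *Tle4* with *Ldb2* to 0.31 (and 0.22 at 2 or more UMIs). That of *Fezf2* with *Tbr1* turned to 0.27 at 2 or more UMIs, 0.063 in later cells and 0.093 without depth classes. Without cells marked as another type, *Ttr* and *Pf4* in *Tle4*-positive cells turned to -0.11 and -0.75. The cause was not tested.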
